A study of Mus musculus with 8 samples.

Results

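Genes of 7 families that modify or remodel chromatin were compared between the Ly6Clo and Ly6Chi subsets of mouse monocytes. A probe set was a member if its single gene symbol in the platform annotation began with Kdm, Hdac, Setd, Smarc or Arid, or with Chd or Brd followed by a number. This rule used no measured value. It took 194 of the 34945 probe sets with a single symbol, and these stood for 77 of 18193 genes. The Kdm genes gave 55 probe sets, Smarc 31, Arid 25, Chd 23, Setd 22, Hdac 19 and Brd 19. Probe sets that carry several symbols were not analysed here as members.

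The cells were sorted from 12-week-old C57Bl/6 mice, with no treatment named, into Gr1lo (Ly-6clo) monocytes, called Ly6Clo here, and Gr1hi (Ly-6chi) monocytes, called Ly6Chi. Each subset had 4 samples, each from its own sort of leukocytes pooled from 5 mice, so a sample averages over animals. Labelled RNA from each sample was put on 1 Affymetrix mouse expression array after in vitro transcription lengthened from 4 h to 64 h. In mice, Ly6Chi cells are known for moving into inflamed tissue and Ly6Clo cells for patrolling along the endothelium.

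Chromatin wraps DNA around histones, and the members act on it in different ways. Kdm proteins remove methyl groups from histone lysines, Setd proteins mostly add them, and Hdac enzymes remove acetyl groups. Smarc and Chd genes encode ATPases that slide or eject nucleosomes, with Smarc also naming their partner subunits, while Arid proteins bind DNA and Brd proteins carry a bromodomain that reads acetylated lysine. In monocytes and macrophages such factors are known to set which enhancers and inflammatory genes can be switched on.

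All values below are log2 intensities of the deposited table, differences are Ly6Clo minus Ly6Chi on that scale, and values in each subset are listed for replicates 1 to 4. A brighter probe set does not mean a more abundant transcript, since probes differ in affinity. A probe set was tested where it exceeded the table's median intensity, 81.9, in at least 4 of the 8 arrays, and called where limma's p, adjusted by Benjamini-Hochberg over all 22831 probe sets tested, was under 0.05. Array medians lay between 80.6 and 83.1. The number of arrays sets the precision, and a tested member's difference had a standard error of 0.08 in the median. All 9 monocyte markers on the array passed the filter, with a summed intensity of 58260 to 61440 in Ly6Clo arrays and 59120 to 60490 in Ly6Chi arrays. The 5 markers of the Ly6Clo side (27670 to 29620 in Ly6Clo, 8150 to 10020 in Ly6Chi) were all called higher in Ly6Clo, and the 3 of the Ly6Chi side (1954 to 2691 in Ly6Clo, 15210 to 16400 in Ly6Chi) all higher in Ly6Chi. Some markers of other cell types differed as well, and in such bulk samples fewer cells of a type and less RNA per cell cannot be told apart. Each sum below covers all listed markers on the array, tested or not. These were 5 B cell, 8 neutrophil, 5 NK cell, 6 T cell, 4 platelet and 2 red cell markers. Of 5 B cell markers tested, 2 were called higher in Ly6Chi (summed intensity 526 to 831 in Ly6Clo, 730 to 1173 in Ly6Chi). Of 7 neutrophil markers tested, 3 were called higher in Ly6Chi (1369 to 1573 in Ly6Clo, 1901 to 2266 in Ly6Chi), and of 3 NK cell markers tested Gzma was called higher in Ly6Clo (753 to 934 in Ly6Clo, 643 to 698 in Ly6Chi). The called B cell markers Cd79a and Ms4a1 and the called neutrophil marker S100a8 had Ly6Clo means of 6.07, 6.11 and 5.71. These lay below the table median of log2 6.36, so the 3 markers passed the filter through their Ly6Chi arrays. Csf3r, the brightest neutrophil marker tested, had means of 9.74 in Ly6Clo and 10.30 in Ly6Chi, and 4 of the 7 were not called. Of 5 T cell, 4 platelet and 1 red cell markers tested, limma called 0, and 1, 0 and 0 had an unadjusted p under 0.05. Their sums were 749 to 889 in Ly6Clo and 739 to 808 in Ly6Chi for T cells, 1147 to 2959 in Ly6Clo and 1040 to 2337 in Ly6Chi for platelets, and 832 to 3958 in Ly6Clo and 780 to 2612 in Ly6Chi for red cells. The platelet and red cell sums were highest in the samples numbered 1 of both subsets. So were the B cell markers Cd79a, Cd79b, Ms4a1 and Blk and the neutrophil markers Ltf, Camp, Ngp and S100a8. Of the other tested markers of these types, Pax5, Mpo, Elane and Csf3r were not. No probe set was listed at 0, and the part of these cells in the results was not tested.

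Differences between the subsets in chromatin genes were modest, and they ran both ways. Of the 194 member probe sets 142 passed the filter, and 35 of these (24.6%) were called, 20 with the higher level in Ly6Clo and 15 with the higher level in Ly6Chi. The background over all tested probe sets was 31.1%, made up of 15.2% toward Ly6Clo and 15.9% toward Ly6Chi, so the members' share was not above the background. A call toward a subset means a higher level in it. By gene, with the tested probe set of highest mean standing for each, 21 of 72 genes (29.2%) were called, 12 toward Ly6Clo and 9 toward Ly6Chi, against 32.5% of all 11546 genes (14.1% and 18.5%). None of the 142 probe sets was both called and at least 2-fold different, where 3.51% of all probe sets and 3.88% of all genes were, and the folds of the called genes ran from 1.17 to 1.91. The median difference was 0.06 over tested member probe sets and 0.006 over all tested, and the median size of a difference was 0.12 and 0.13. Values of the subsets did not overlap in 37 member probe sets, 22 of them toward Ly6Clo and 15 toward Ly6Chi, and in 23 of the 72 genes, against 31.8% of all probe sets and 33.9% of all genes. Of the 142, 4 passed the filter in exactly 4 arrays, and none of those was called. No tested probe set stood for Kdm4d, Kdm8, Hdac8, Smarca1 or Smarcd3. Without both samples numbered 1, the member probe sets called were 24 toward Ly6Clo and 10 toward Ly6Chi.

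**Figure D1:**
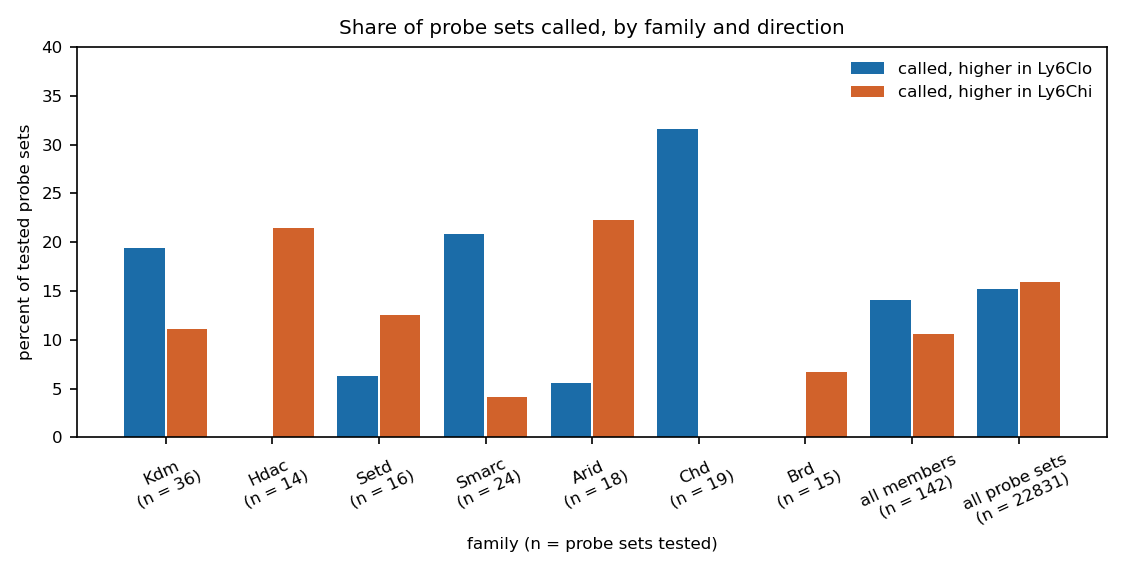
Percent of tested probe sets called toward Ly6Clo (blue, a higher level there) and toward Ly6Chi (orange) for each gene family, for all 142 tested members and for all 22831 tested probe sets, where n is the number tested. Chd has 31.6% called higher in Ly6Clo and 0 called higher in Ly6Chi, Hdac has 21.4% called higher in Ly6Chi and 0 higher in Ly6Clo, and Brd has the fewest calls.

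Among the lysine demethylases, 7 of 36 tested probe sets were called toward Ly6Clo and 4 toward Ly6Chi, and by gene 3 and 2 of 16. These shares, 30.6% of probe sets and 31.2% of genes, were near those of all probe sets (31.1%) and all genes (32.5%). The H3K4 demethylases Kdm5a and Kdm5b and the H3K27 demethylase Kdm6b were higher in Ly6Clo, and Kdm2b and Kdm7a were higher in Ly6Chi. Kdm2b, which brings a Polycomb complex to unmethylated CpG islands, had 8.42, 8.99, 8.86 and 8.67 in Ly6Clo arrays, against 9.51, 9.47, 9.25 and 9.74 in Ly6Chi arrays. The lowest Ly6Chi array lay above the highest Ly6Clo array. The difference was -0.75 (SE 0.13, limma adjusted p = 0.00077), a 1.69-fold higher level in Ly6Chi, and the second probe set of the gene gave -0.71. Kdm7a, a demethylase of H3K9 and H3K27, had 10.54, 11.03, 10.68 and 10.68 in Ly6Clo and 11.27, 11.37, 11.02 and 11.24 in Ly6Chi. Ly6Clo replicate 2 and Ly6Chi replicate 3 were level, so the subsets overlapped there, although the gene was called (difference -0.49, SE 0.11, adjusted p = 0.0046). This was the brightest probe set of the family. A second Kdm7a probe set was called without overlap (-0.47), and the third was not called (-0.19).

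Kdm5a had 8.60, 8.79, 9.04 and 8.62 in Ly6Clo, against 8.19, 8.42, 8.07 and 8.53 in Ly6Chi. All Ly6Clo arrays lay above all Ly6Chi arrays, and the gene was called (difference 0.46, SE 0.12, limma adjusted p = 0.011). Its other 2 tested probe sets, both dimmer, differed by 0.05 and 0.04 and were not called, and with the mean of the tested probe sets the gene lost its call (0.18, adjusted p = 0.087). Kdm5b, its close relative, had 8.34, 8.20, 8.12 and 8.16 in Ly6Clo, against 7.84, 7.89, 7.89 and 7.74 in Ly6Chi. The groups did not overlap, replicates varied little, and the difference was 0.37 (SE 0.07, adjusted p = 0.0015). A second of its 3 tested probe sets was called the same way (0.28), although its mean in Ly6Chi, 6.32, lay below the table median of 6.36 and it passed the filter through its Ly6Clo arrays, and the third, at 0.21, was not called. Kdm6b, which is known to be induced in mouse macrophages by inflammatory signals, differed by 0.30 (SE 0.07, adjusted p = 0.0085), by a probe set whose suffix marks probes that may bind other transcripts. Its second probe set gave the same size with a wider error and was not called (0.30, SE 0.13), and the third, much dimmer, stood at -0.004. The remaining 11 Kdm genes were not called, from -0.21 for Kdm4a to 0.17 for Kdm3b, and their 95% intervals stayed between -0.40 and 0.36. Kdm1a, the flavin-dependent demethylase of corepressor complexes, was among these (-0.19, interval -0.35 to -0.03). So was the Y-linked Kdm5d (0.16, interval -0.01 to 0.33). Kdm2a, Kdm3b and Kdm6a were not called by their brightest probe set, but each had a dimmer one called higher in Ly6Clo (0.39, 0.60 and 0.27). For Kdm3b that second probe set lay below the table median in 2 Ly6Chi arrays.

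**Figure D2:**
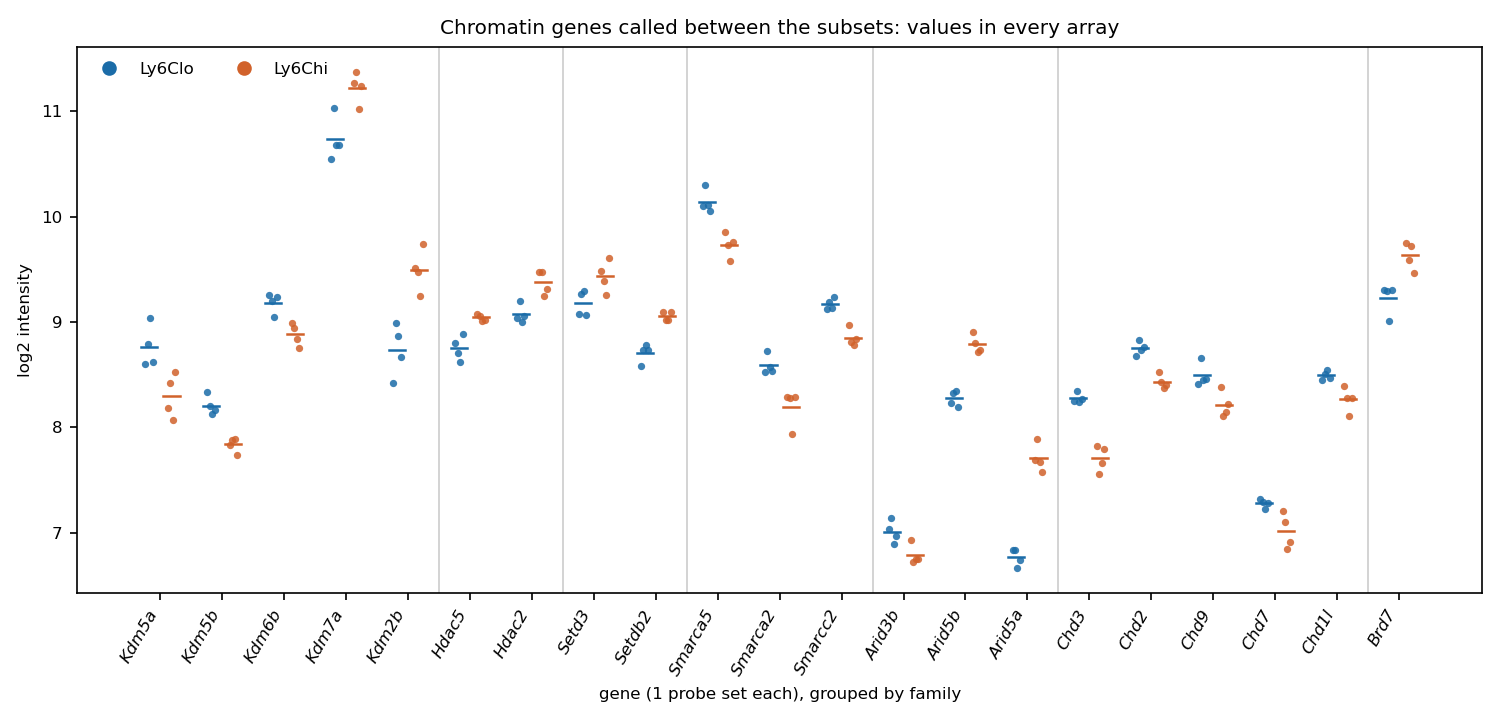
Log2 intensity in every array for the 21 called genes, 1 probe set each, grouped by family, with Ly6Clo arrays in blue left of Ly6Chi arrays in orange and a line at each group's mean over 4 arrays. The groups overlap for Kdm7a, Setd3 and Arid3b, and Arid5a shows the widest gap.

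Of the histone deacetylase probe sets 3 of 14 tested were called higher in Ly6Chi, both of Hdac2 and the single one of Hdac5. In limma 0 were called higher in Ly6Clo, and 2 had an unadjusted p under 0.05 in that direction. The family's share called was 21.4%, against 31.1% of all tested probe sets, of which 15.9% were toward Ly6Chi. Hdac2, a class I enzyme of the NuRD, Sin3 and CoREST corepressors, had 9.04, 9.20, 9.00 and 9.06 in Ly6Clo, against 9.47, 9.48, 9.25 and 9.32 in Ly6Chi. The narrow gap lay between Ly6Clo replicate 2 and Ly6Chi replicate 3, and the difference was -0.30 (SE 0.07, limma adjusted p = 0.0087). The second probe set differed by -0.39 (adjusted p = 0.011). Without both samples numbered 1 the difference was -0.26 and the call was lost (limma adjusted p = 0.059). Those samples carried the highest platelet and red cell sums and the highest levels of several B cell and neutrophil markers. Whether this bears on Hdac2 was not tested, and that fit also had fewer arrays. Leaving out 1 library at a time lost the Hdac2 call in 0 of 8 fits. Hdac5, a class II enzyme that shuttles between nucleus and cytoplasm, had 8.80, 8.71, 8.62 and 8.88 in Ly6Clo, against 9.08, 9.06, 9.01 and 9.02 in Ly6Chi. Ly6Chi arrays were nearly level and all above Ly6Clo arrays (difference -0.29, SE 0.07, adjusted p = 0.0068). Hdac1, the close relative of Hdac2 and the brightest probe set of the family, had 9.72, 9.76, 9.75 and 9.62 in Ly6Clo, against 9.75, 9.74, 9.72 and 9.68 in Ly6Chi. The groups lay on top of each other, with a difference of -0.01 and an interval of -0.14 to 0.12. The other genes not called were Hdac3, Hdac4, Hdac6, Hdac7, Hdac9, Hdac10 and Hdac11, from -0.02 for Hdac9 to 0.16 for Hdac10. The family's count depended on 1 library: without Ly6Chi replicate 1, 2 probe sets were called higher in Ly6Clo beside the 3 higher in Ly6Chi.

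Of the Setd genes, which mostly encode lysine methyltransferases, 0 of 10 were called toward Ly6Clo in limma (1 at an unadjusted p under 0.05) and 2 toward Ly6Chi. Thus 20% of its genes were called, against 32.5% of all genes, of which 18.5% were toward Ly6Chi. Setdb2, a SET-domain protein that interferon is known to induce in mouse macrophages, had 8.59, 8.73, 8.78 and 8.73 in Ly6Clo, against 9.09, 9.02, 9.02 and 9.09 in Ly6Chi. The groups stood well apart, with a difference of -0.34 (SE 0.06, limma adjusted p = 0.0014). Setd3, known as the methyltransferase of a histidine in actin, had 9.08, 9.26, 9.29 and 9.07 in Ly6Clo, against 9.48, 9.39, 9.25 and 9.61 in Ly6Chi. Its groups overlapped at Ly6Chi replicate 3, and its call was the weakest here (difference -0.26, SE 0.09, adjusted p = 0.044). It was lost without Ly6Clo replicate 1 or 4 or Ly6Chi replicate 1, 2 or 4 (adjusted p up to 0.12), and the dimmer second probe set showed no such difference (0.02). Setd2, which adds the third methyl group at H3K36 and had the brightest probe set of the family, had 9.34, 9.45, 9.39 and 9.47 in Ly6Clo and 9.38, 9.18, 9.24 and 9.39 in Ly6Chi. The groups overlapped, and it was not called (difference 0.12, adjusted p = 0.25). The H3K9 methyltransferase Setdb1 differed by -0.10 and the H3K4 methyltransferase Setd1a by 0.14, and neither was called. Setd1b was not called by its brighter probe set (0.08), but its other one was called higher in Ly6Clo (0.23).

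In the Smarc family 5 of 24 tested probe sets were called toward Ly6Clo and 1 toward Ly6Chi, and all 3 called genes of 11 were higher in Ly6Clo. The shares called, 25% of probe sets and 27.3% of genes, stood against 31.1% of all probe sets and 32.5% of all genes. Smarca5, the ATPase of the ISWI remodelers, had 10.10, 10.30, 10.11 and 10.05 in Ly6Clo, against 9.85, 9.73, 9.58 and 9.76 in Ly6Chi. Every Ly6Clo array lay above every Ly6Chi array, and all 3 tested probe sets of the gene were called without overlap, with differences of 0.41, 0.34 and 0.52 (SE 0.08, 0.06 and 0.07). Smarca2, one of the alternative ATPases of the SWI/SNF complex, had 8.53, 8.72, 8.57 and 8.54 in Ly6Clo, against 8.28, 8.28, 7.94 and 8.29 in Ly6Chi. Ly6Chi replicate 3 was low, the groups did not overlap, and the difference was 0.39 (SE 0.09, limma adjusted p = 0.0051). Without that replicate it was 0.31 and still called, whereas the gene's second probe set was not called (0.25, adjusted p = 0.063). The scaffold subunit Smarcc2 averaged 9.17 ± 0.05 in Ly6Clo and 8.85 ± 0.08 in Ly6Chi (SD, n = 4 each) and was called, without overlap (difference 0.32). Smarcd2, a subunit needed for granulocyte development in mice, had 11.02, 11.14, 11.15 and 11.05 in Ly6Clo and 10.99, 10.98, 10.90 and 11.03 in Ly6Chi. It was the brightest member of all 72 genes, its groups overlapped slightly, and it was not called (difference 0.12, interval -0.02 to 0.25). The other ATPase of the complex, Smarca4 (0.11), and the subunits Smarcc1 (0.04), Smarcd1 (0.04) and Smarce1 (0.08) were not called either. Nor was the core subunit Smarcb1 by its brightest probe set (-0.10), although 1 of its 3 probe sets, with a suffix that marks probes shared with other transcripts, was called higher in Ly6Chi (-0.20, adjusted p = 0.042). That call was lost in 7 of the 8 fits that left out a library, all but that without Ly6Chi replicate 4 (adjusted p up to 0.11), and with a replicate block (adjusted p = 0.059), no filter, median centring or the variance trend, and without both samples numbered 1.

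Promoters are shown for 4 called genes that RefSeq's table gives a single promoter, the 2 with the largest differences in each direction, so that their base composition can be set side by side. For both Smarc genes the 250 bases before the annotated start, written from 5′ to 3′ of the gene on build GRCm38.p6, were rich in CpG. Capitals mark the GC box, GGGCGG on either strand. The Smarca5 stretch (chr8:80739460-80739709, minus strand) held 29 CpG and 1 GC box, and the Smarca2 stretch (chr19:26604910-26605159, plus strand) held 28 CpG and 2 GC boxes.
Smarca5: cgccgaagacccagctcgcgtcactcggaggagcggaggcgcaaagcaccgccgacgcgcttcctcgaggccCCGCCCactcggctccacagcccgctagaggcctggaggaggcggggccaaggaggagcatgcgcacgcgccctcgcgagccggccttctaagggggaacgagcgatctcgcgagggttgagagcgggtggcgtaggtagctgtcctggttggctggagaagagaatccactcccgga
Smarca2: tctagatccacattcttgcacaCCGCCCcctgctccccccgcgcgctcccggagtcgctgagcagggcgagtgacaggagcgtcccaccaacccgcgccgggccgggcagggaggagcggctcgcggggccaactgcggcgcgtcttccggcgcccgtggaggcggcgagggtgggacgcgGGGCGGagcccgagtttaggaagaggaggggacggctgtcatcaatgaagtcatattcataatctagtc

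The widest difference of all members lay in the Arid family, where the related genes Arid5a and Arid5b were both higher in Ly6Chi. Arid5a, an RNA-binding protein known in mouse macrophages for stabilising Il6 mRNA, had 6.84, 6.84, 6.67 and 6.74 in Ly6Clo, against 7.69, 7.89, 7.67 and 7.57 in Ly6Chi. The groups were separated by far more than their spread, with a difference of -0.93 (SE 0.08, limma adjusted p = 3.4e-06), 1.91-fold. Arid5a had a single probe set, rather dim in Ly6Clo (mean 6.77, table median 6.36), which a stricter filter left untested. Arid5b, which works with the demethylase Phf2 and is known from fat cell development, had 8.23, 8.33, 8.34 and 8.20 in Ly6Clo, against 8.90, 8.80, 8.71 and 8.74 in Ly6Chi. These groups were also far apart (difference -0.51, SE 0.07, adjusted p = 0.00011), while a second, dim probe set near the filter's limit stood at 0.11 and was not called. Arid3b, a DNA-binding protein, was the single Arid gene called higher in Ly6Clo, with 7.04, 7.15, 6.89 and 6.97 in Ly6Clo, against 6.93, 6.72, 6.75 and 6.75 in Ly6Chi. Ly6Chi replicate 1 overlapped the Ly6Clo arrays, and the call (difference 0.22, SE 0.07, adjusted p = 0.038) was lost in 6 of the 8 fits that left out a library, and under median centring (adjusted p = 0.061). Those libraries were all but Ly6Clo replicate 3 and Ly6Chi replicate 1. Arid1a, the defining subunit of the canonical BAF form of SWI/SNF and the brightest probe set here, had 10.28, 10.59, 10.30 and 10.43 in Ly6Clo and 10.42, 10.19, 10.14 and 10.22 in Ly6Chi. Ly6Chi replicate 1 again lay among the Ly6Clo arrays, and the gene was not called (difference 0.16, adjusted p = 0.21). Arid2, the counterpart in the PBAF form, was not called by its brightest probe set (-0.03), but 2 of its 4 tested probe sets were called higher in Ly6Chi (-0.20 and -0.23), the first of them in 4 of the 8 fits that left out a library (not without Ly6Clo replicate 3 or 4 or Ly6Chi replicate 1 or 2). Without Ly6Clo replicate 4 the family's 5 called probe sets of 18 tested (27.8%, against 31.1% of all) became 3.

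The promoters of both Arid5 genes differ in composition. The Arid5a stretch (chr1:36307483-36307732, plus strand) held 13 CpG, 3 GC boxes and 1 CCAAT box. The Arid5b stretch (chr10:68278727-68278976, minus strand) held 4 CpG, no GC box and 1 match to the TATA box letters TATAAA. That match lay on the other strand, 108 bases before the start, and whether it works as a TATA box was not tested. Capitals mark these matches.
Arid5a: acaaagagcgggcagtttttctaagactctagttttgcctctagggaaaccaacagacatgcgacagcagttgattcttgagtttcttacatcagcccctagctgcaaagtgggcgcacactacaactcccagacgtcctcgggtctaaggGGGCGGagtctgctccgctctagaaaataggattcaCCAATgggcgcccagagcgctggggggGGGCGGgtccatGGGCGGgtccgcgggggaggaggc
Arid5b: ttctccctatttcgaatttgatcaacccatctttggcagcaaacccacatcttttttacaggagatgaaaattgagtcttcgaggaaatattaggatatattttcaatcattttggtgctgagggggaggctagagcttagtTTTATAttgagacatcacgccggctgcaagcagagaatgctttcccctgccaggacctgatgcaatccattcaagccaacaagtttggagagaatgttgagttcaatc

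Of the 77 member genes 59 had a promoter in the RefSeq table, 79 promoters in all. Motifs were searched on both strands with overlapping matches allowed, in the same 250 bases of every gene. The GC box stood in 62.0% of the members' promoters and in 32.7% of all 32851, and the median CpG count was 20 and 6. All 32851 include promoters of genes not tested here, and no comparison with tested genes alone was made. CCAAT occurred in 32.9% and 33.8%, TATAAA in 6.3% and 12.4%, the Ets site GGAAGT in 12.7% and 19.7%, and the E-box CACGTG in 2.5% and 6.0%. TGACGT, from the cAMP response element, occurred in 5.1% and 6.5%. Members called higher in Ly6Clo had a median of 21 CpG over 9 promoters of 7 genes. Those called higher in Ly6Chi had 27 over 13 promoters of 9 genes. These are counts of letters and not of binding.

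Chd had the largest share of genes called in one direction, 5 of 10. Of its 19 tested probe sets 6 were called toward Ly6Clo and 0 toward Ly6Chi in limma, with 0 at an unadjusted p under 0.05 toward Ly6Chi. The 5 called genes were all higher in Ly6Clo. By probe set the share called, 31.6%, was near the 31.1% of all probe sets, of which 15.2% were toward Ly6Clo. By gene it was 50%, against 32.5% of all genes, of which 14.1% were toward Ly6Clo. Differences were positive for 9 of 10 Chd genes, also after quantile normalization or median centring, where 47.3% of all genes were positive. Chd3, an ATPase of the NuRD complex, had 8.25, 8.35, 8.24 and 8.27 in Ly6Clo, against 7.83, 7.56, 7.66 and 7.79 in Ly6Chi. Ly6Clo arrays were tightly placed and all above Ly6Chi arrays, with a difference of 0.57 (SE 0.07, limma adjusted p = 9.0e-05), 1.48-fold. Chd2, which is known to deposit the histone variant H3.3 at active genes, had 8.68, 8.83, 8.74 and 8.76 in Ly6Clo, against 8.52, 8.43, 8.38 and 8.40 in Ly6Chi. The subsets did not overlap (difference 0.32, SE 0.06, adjusted p = 0.0021). Chd4, the other main NuRD ATPase and the brightest probe set of the family, had 9.45, 9.32, 9.52 and 9.50 in Ly6Clo and 9.37, 9.38, 9.35 and 9.42 in Ly6Chi. Ly6Clo replicate 2 fell below the Ly6Chi arrays, and the gene was not called (difference 0.07, interval -0.07 to 0.21). The other calls were Chd9 (0.28, limma adjusted p = 0.018, and 0.44 by its second probe set), Chd7, the gene mutated in human CHARGE syndrome (0.26, adjusted p = 0.030), and Chd1l, a remodeler activated by poly(ADP-ribose) (0.23, adjusted p = 0.029). These calls were less stable. Of the 8 fits that left out a library, 6 lost Chd1l (all but those without replicate 1 of either subset), 5 lost Chd7 (all but those without Ly6Clo replicate 3 or Ly6Chi replicate 1 or 2) and 2 lost Chd9 (those without replicate 2 of either subset), with adjusted p up to 0.083. Chd1l was also lost with a replicate block (adjusted p = 0.052) and with no filter, and the Chd genes called were then 4. Chd8 (0.24, adjusted p = 0.12) and Chd1 (0.17, adjusted p = 0.11) were not called, nor were Chd6 (0.03) and Chd5 (-0.01). Without Ly6Clo replicate 2 the called probe sets of the family were 3 and the called genes 2, all higher in Ly6Clo. With the threshold on limma's adjusted p at 0.01 the called genes were 2 as well.

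The Brd series had the lowest share of calls, 1 of 15 tested probe sets (6.67%, against 31.1% of all), toward Ly6Chi. Toward Ly6Clo limma called 0, and 2 had an unadjusted p under 0.05. Brd7, a subunit of PBAF, had 9.30, 9.29, 9.01 and 9.31 in Ly6Clo, against 9.75, 9.59, 9.72 and 9.47 in Ly6Chi. The groups did not overlap, with Ly6Clo replicate 3 apart from the other three at the low end, and the difference was -0.40 (SE 0.09, limma adjusted p = 0.0045). Without that replicate it was -0.33 and still called. Brd2, a BET protein that binds acetylated histones and the brightest probe set of the family, had 9.68, 9.77, 9.57 and 9.51 in Ly6Clo and 9.42, 9.25, 9.68 and 9.43 in Ly6Chi. Ly6Chi replicate 3 lay among the Ly6Clo arrays, and Brd2 was not called (difference 0.19, interval -0.02 to 0.39). It was called without that replicate (0.27), and with the mean of both its probe sets (0.18, adjusted p = 0.035). Brd9, a subunit of the non-canonical form of SWI/SNF, differed by 0.15 and was not called. Brd1 (-0.07), Brd3 (0.01) and Brd8 (-0.01) were not called.

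**Figure D3:**
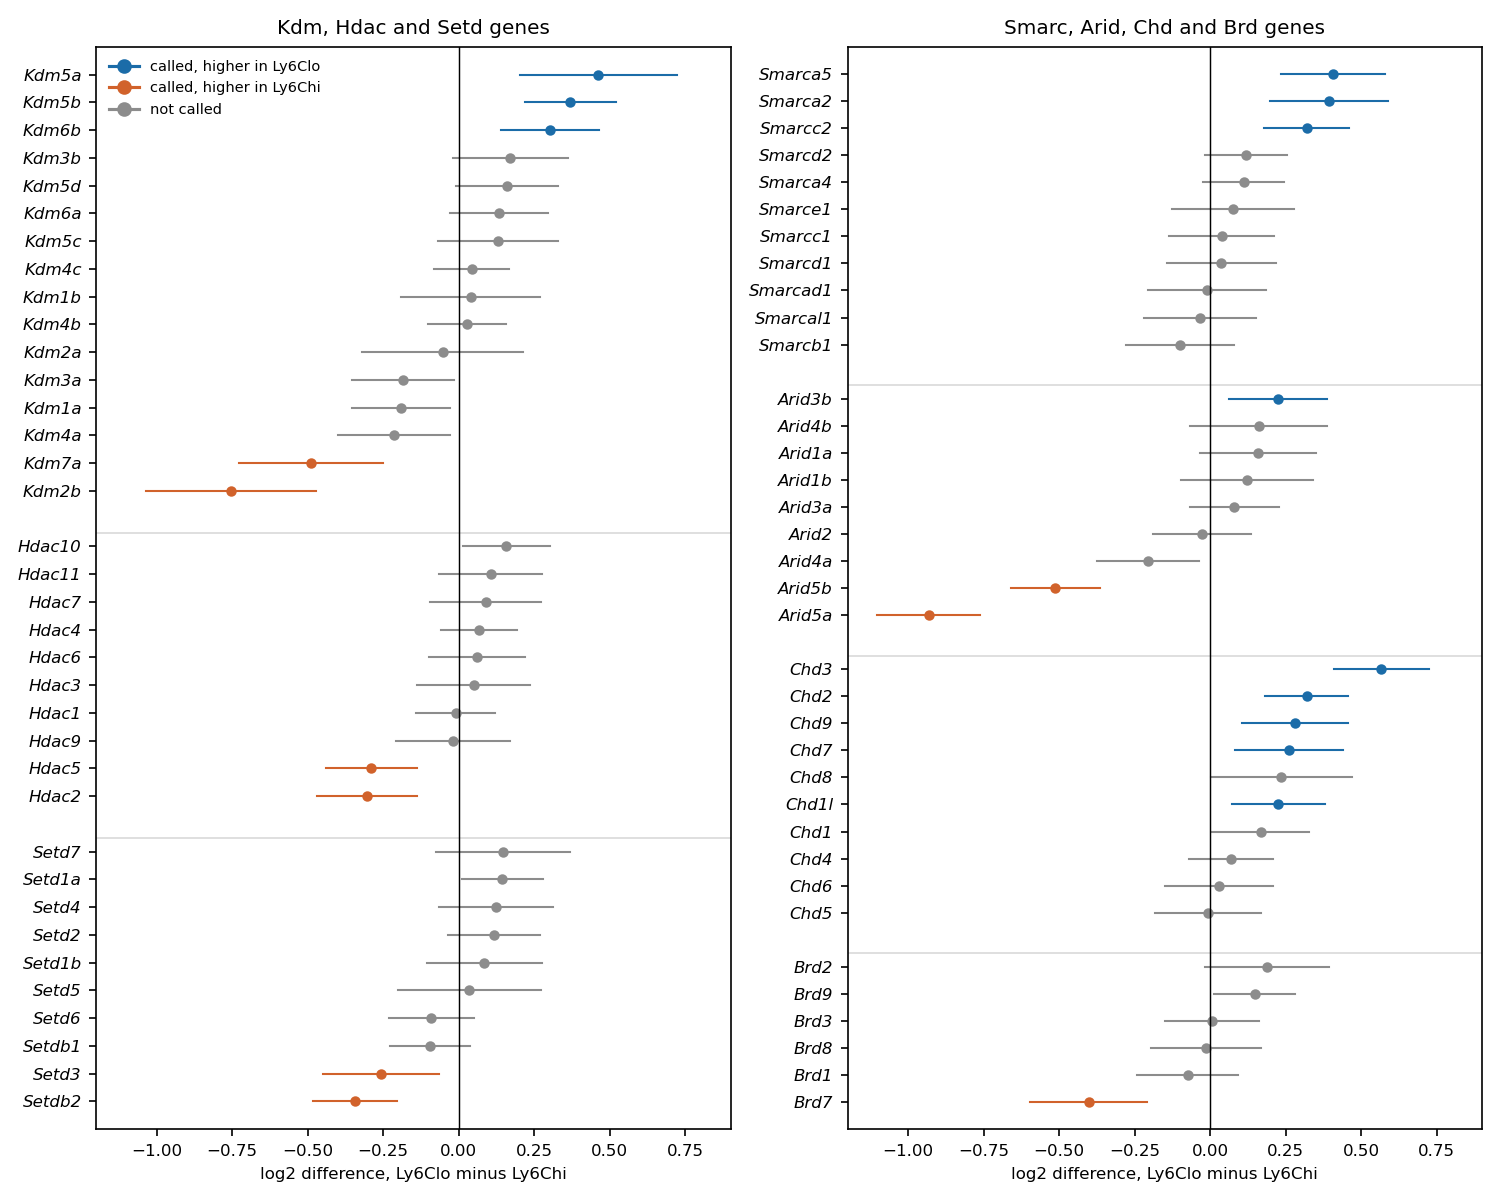
Log2 difference, Ly6Clo minus Ly6Chi, with its unadjusted 95% interval for the 72 member genes tested, 4 arrays per subset, ordered by size within each family. Genes called are blue (higher in Ly6Clo) or orange (higher in Ly6Chi), and the Chd points lie almost entirely to the right of 0.

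Related members did not always move alike. The pairs below were chosen after the values were seen, and their change in ratio within an array is a description. Because a probe set's level depends on its probes, only the shift of a ratio between subsets can be read. The ratio of Hdac2 to Hdac1 was lower in Ly6Clo by 0.29 on the log2 scale (log2 ratio -0.75 to -0.56 in Ly6Clo, -0.46 to -0.26 in Ly6Chi). Smarca2 against Smarca4 shifted by 0.28 (-1.19 to -1.02 in Ly6Clo, -1.67 to -1.21 in Ly6Chi). Smarcc2 against Smarcc1 shifted by 0.28 as well (1.00 to 1.28 in Ly6Clo, 0.77 to 0.97 in Ly6Chi). The widest upward shift was that of Chd3 against Chd4, 0.50 (-1.28 to -0.97 in Ly6Clo, -1.82 to -1.54 in Ly6Chi). Brd7, of PBAF, against Brd9, of the non-canonical complex, shifted by -0.55 (0.13 to 0.48 in Ly6Clo, 0.77 to 1.00 in Ly6Chi). In all 5 pairs the ratios of the subsets did not overlap. Each pair sets a called gene, whose own arrays did not overlap, against a gene not called. The separation was therefore largely fixed by the choice of pairs, and other pairs were not counted.

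**Figure D4:**
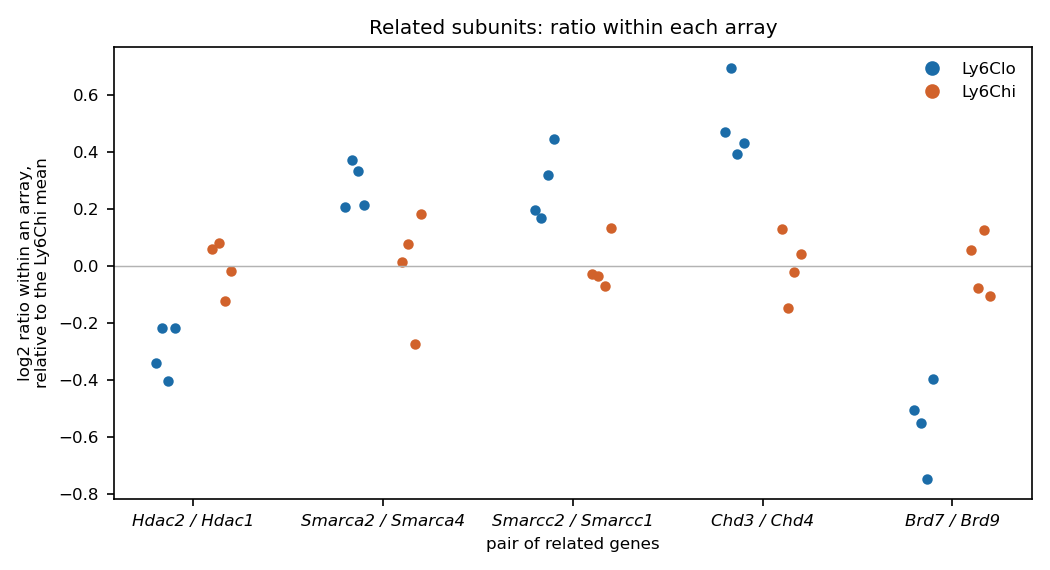
Log2 ratio of 5 pairs of related genes within each array, with the mean of the Ly6Chi arrays of each pair set to 0, Ly6Clo arrays in blue left of Ly6Chi arrays in orange. The ratios shift up in Ly6Clo for Smarca2 over Smarca4, Smarcc2 over Smarcc1 and Chd3 over Chd4, and down for Hdac2 over Hdac1 and Brd7 over Brd9.

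Probe sets of a gene did not contradict each other by call. Of 41 member genes with several tested probe sets, 4 had all of them called in the same direction (Kdm2b, Hdac2, Smarca5 and Chd9), 14 had some called in a single direction and 23 had none. As a description, brighter probe sets were called more often: 26 of the 71 over the members' median level of 7.92 (36.6%), and 9 of the 71 at or under it (12.7%). Their median standard errors were similar, 0.077 and 0.083. No such split was made over all tested probe sets, so it cannot be read as particular to the members. The 52 members not tested lay between 3.72 and 6.29 on average over the arrays.

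**Figure D5:**
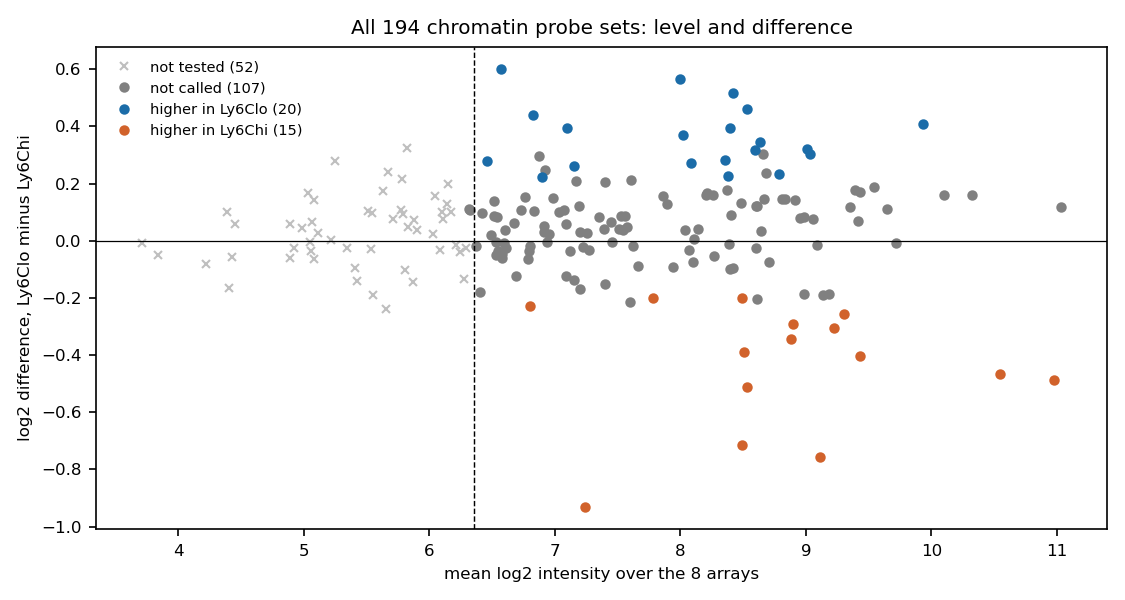
Difference, Ly6Clo minus Ly6Chi, against mean log2 intensity over the 8 arrays for all 194 member probe sets: crosses were not tested (52), grey points not called (107), blue called higher in Ly6Clo (20) and orange called higher in Ly6Chi (15). The dashed line marks the table median, log2 6.36. Calls become more frequent among the brighter members, which was not compared with all probe sets.

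Other chromatin genes, from lists written from general knowledge, also differed in both directions. Of 128 such genes tested, 26 were called toward Ly6Clo and 12 toward Ly6Chi, where 14.1% and 18.5% of all genes were, and their median difference was 0.05. Among 24 partners of HDAC complexes 3 were called in each direction. Rbbp7, a histone-binding subunit that NuRD, Sin3 and Polycomb complexes share, had 10.48, 10.58, 10.70 and 10.41 in Ly6Clo, against 9.76, 9.60, 9.51 and 9.54 in Ly6Chi, a wide separation (difference 0.94, SE 0.08, limma adjusted p = 4.5e-06). Tbl1x, of the NCoR corepressor, was higher in Ly6Chi (-0.58). Of 18 Polycomb genes 5 were called higher in Ly6Clo, led by the ubiquitin ligase Rnf2 (0.61), and 1 higher in Ly6Chi, Pcgf3 (-0.33). Of 6 sirtuins, the NAD-dependent deacylases, Sirt7 was called higher in Ly6Clo (0.24), and 2 others were called toward Ly6Chi, led by the mitochondrial Sirt3 (-0.73). Among 13 histone acetyltransferases 5 were called higher in Ly6Clo, led by Hat1 (0.68), which acetylates newly made histone H4, and Kat2b was called higher in Ly6Chi (-0.30). Of 19 other histone methyltransferases 5 were called higher in Ly6Clo, led by the arginine methyltransferase Carm1 (0.55), and 2 higher in Ly6Chi, led by Smyd3 (-0.33). Of 14 other SWI/SNF subunits 2 were called higher in Ly6Clo, led by Bcl7b (0.34), and Phf10, a PBAF subunit, was called higher in Ly6Chi (-0.32). Of 15 ISWI, INO80 and SRCAP genes only Baz1b, a partner of Smarca5, was called (0.54, higher in Ly6Clo). Of 8 DNA methylation genes 2 were called higher in Ly6Clo, led by the 5-methylcytosine oxidase Tet2 (0.72), and Dnmt3b higher in Ly6Chi (-0.29). Of 11 other JmjC proteins 2 were called higher in Ly6Clo, led by Riox2 (0.44), and Jmjd8 higher in Ly6Chi (-0.27).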

How the data were processed

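Expression was measured in 4 Ly6Clo and 4 Ly6Chi samples, 1 array each. The values the authors deposited are probe set intensities on a linear scale with nearly equal array medians. GCRMA and MAS5 are named in the submitters' processing notes with no more detail, so the one that made the values, and how arrays were normalized, is not given in the sources used here. The authors' long amplification, per the labels' protocols, can change the size of measured ratios. Deposited intensities were taken to log2 here with no pseudocount and no further normalization.

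Of 45101 probe sets 64 controls were left out. Symbols came from the platform annotation (34945 probe sets with 1 symbol, 932 with several, 9160 with none), and all 194 members matched a mouse gene table through the Entrez identifier. Probe sets over the median of the table (log2 6.36) in at least 4 of 8 arrays were tested (22831, 50.7%), whatever the subset, with limma 3.58.1 in R 4.3.3 (lmFit, eBayes, no block), two-sided, adjusted over all of them. Intervals are unadjusted. The workflow was tested on simulated data. The members and lists were chosen with earlier results of these data known.

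Genes given with values in every array were, per family, the 2 called genes with the largest difference in each direction and the gene with the highest mean (22 genes), and in each other list the called gene with the largest difference in each direction was named. Rbbp7's array values, and the gene pairs, were chosen after their values were seen. Promoters came from RefSeq (GRCm38.p6). Samples with the same number were checked for pairing: their deviations from the group means correlated at 0.27, 0.34, -0.03 and -0.10 for numbers 1 to 4, so the numbers were not taken as pairs. Between samples of the 2 subsets with different numbers these correlations ran from -0.41 to 0.55. Alternatives were a replicate block, leaving out each library or both samples numbered 1, other filters, scalings, variance models, weights, thresholds and choices of probe set.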

Additional observations from a re-analysis of the deposited data

Results flagged for a closer look

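Of 144 groups of 4 arrays checked, 2 for each of the 72 genes, 7 held an array that stood apart from the other 3 by more than Dixon's 95% critical value for the gap over the range. Chance flags about 1 in 20 groups. Among Ly6Clo arrays these were replicate 3 for Smarce1 (8.88, others 9.15 to 9.19) and for Brd7 (9.01, others 9.29 to 9.31). Among Ly6Chi arrays replicate 3 was low for Smarca2 (7.94, others 8.28 to 8.29) and Arid1b (8.23, others 8.61 to 8.69), replicate 2 for Setd4 (6.88, others 7.18 to 7.23) and replicate 4 for Arid2 (8.52, others 8.64 to 8.66). Ly6Chi replicate 1 was high for Arid3b (6.93, others 6.72 to 6.75). Smarca2, Brd7 and Arid3b were called. Without the array that stood apart Smarca2 and Brd7 were still called, and so was Arid3b, whose difference was then 0.27.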

How the results depend on the processing

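Over 20 alternatives the counts of called probe sets and genes mostly stayed within 1.5 times their values above. The exceptions follow, and their cause was not tested except where fewer probe sets or a stricter threshold is the construction. At an adjusted p under 0.01, 2290 probe sets in all, 13 member probe sets and 7 member genes were called higher in Ly6Clo, and the called probe sets of Setd, Arid and Chd were 1, 2 and 3. The stricter filter left 3 for Arid and 2 for Brd, quantile normalization gave 2 for Brd, and array weights gave 5 for Hdac. Leaving out 1 library at a time gave 3 to 5 for Hdac (5 without Ly6Chi replicate 1), 3 to 5 for Arid (3 without Ly6Clo replicate 4), 3 to 6 for Chd (3 without Ly6Clo replicate 2) and 1 to 2 for Brd (2 without Ly6Chi replicate 3). Member genes called higher in Ly6Clo were 8 to 13 over these fits.

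Among the 22 genes with array values, Setd3 and Smarca2 were each represented by a probe set with the suffix a_at. When probe sets with the suffix a_at, s_at or x_at were left out, Setd3 reversed to 0.025 and Smarca2 lost its call (0.25). Setd3 and Arid3b also lost theirs with no filter and under median centring. Quantile normalization, the pseudocount, the variance trend and array weights changed none of the 22 calls. With same-numbered samples as a replicate block, the member probe sets called were 21 toward Ly6Clo and 13 toward Ly6Chi (genes 11 and 8), and of the 22 genes only Setd3 changed its call (adjusted p = 0.071). The scalings moved the median of all differences by less than 0.01. Of the 21 called genes 16 were called in every fit that left out 1 library, and of the 35 called probe sets 28 were. No detection calls were used here, so for dim probe sets signal cannot be told from background.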
